A study of Vitis vinifera with 40 samples.

Results

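The genes described here are 7 listed members of the anthocyanin branch of grapevine (*Vitis vinifera*), out of 29971 genes in the count table, and they were listed by name, with earlier results of these data known. They are UFGT (VIT_16s0039g02230), GST4 (VIT_04s0079g00690), the colour locus genes MYBA2 (VIT_02s0033g00390), MYBA1 (VIT_02s0033g00410) and MYBA3 (VIT_02s0033g00450), and the vegetative genes MYBA6 (VIT_14s0006g01290) and MYBA7 (VIT_14s0006g01340). All 7 had at least 1 count in the series, but only UFGT and GST4 passed the filter on low counts over the 12 stages.

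Anthocyanins are the red to blue pigments of grape skin and young leaves. UFGT, a glucosyltransferase, attaches glucose to the unstable anthocyanidins and thereby makes the first stable pigments, and GST4 is a glutathione S-transferase needed to carry them into the vacuole. MYBA1 and MYBA2 are R2R3-MYB activators that switch on UFGT in the skin of coloured berries, and both are inactive in most white-berried cultivars. MYBA6 and MYBA7 are related activators known from vegetative organs. MYBA3 lies at the colour locus with MYBA1 and MYBA2, and no role is given for it here.

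RNA was sequenced from somatic embryos of “Malvasia Istriana”, a white-berried cultivar, in 40 libraries of 12 successive stages. The stages were early induction (EI), preglobular (PG), globular 1 (G1) and globular 2 (G2) on auxin in the dark, then heart (H), torpedo 1 (T1), torpedo 2 (T2) and cotyledonary 1 (C1) without hormones in the dark. Cotyledonary 2 (C2) embryos were kept without hormones in long days, and seedlings (S), seedlings with epicotyl (EP) and juvenile plants (JP) with gibberellin in long days. By the study's methods, the germination medium held the auxin IAA beside gibberellin, and the induction medium held the cytokinin BAP beside its auxins. C2 and EP had 5 replicates and each other stage 3. Samples pooled many embryos of one stage, by the methods of the study, and in EI cells and small cell clusters. No separate number of seedlings or plants per sample is given for S, EP and JP. The p-values measure the spread between these samples, which may in part be technical. Light, gibberellin, IAA, age and organ formation changed along the same series, so that their parts in any difference cannot be told apart. All stages come from one cultivar, without a coloured cultivar for comparison.

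Total counts per library ranged between 13774534 and 68058022 with a median of 23096350. Levels are given in CPM (counts of a gene per 1000000 counts of the library), scaled with edgeR's TMM factors, and since the lengths of these gene models are not at hand, levels are compared between libraries and not between genes. The long-day label was checked with LHCA2 (VIT_01s0010g03620), a chlorophyll-binding protein of photosystem I, which did not exceed 1.07 CPM in any dark library and averaged 7.37 ± 5.32 CPM in C2 (SD, n = 5), 74.2 ± 25.2 CPM in S (SD, n = 3), 605 ± 49 CPM in EP (SD, n = 5) and 962 ± 401 CPM in JP (SD, n = 3). Within C2, LHCA2 was at 9.86 to 11.9 CPM in replicates 1 to 3 and at 1.95 and 1.29 CPM in replicates 4 and 5. Some libraries stood apart. In EP replicates 1, 2 and 3 the 10 most abundant genes held between 53.8% and 55.1% of the counts and the TMM factors were between 0.394 and 0.4245, whereas EP replicates 4 and 5 had 24.2% and 15.6% and factors of 0.9488 and 1.223. C2 replicate 3 had counts for 29136 genes, against at most 27960 in any other library. Among 2919 genes with at most 5 counts in every other library, 2273 had a count in C2 replicate 3, against at most 1472 in any other library. These libraries are named beside the results that they move.

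UFGT, which completes anthocyanin synthesis, was detected in all 40 libraries and had its highest stage means in EP and JP. In the auxin stages its level was 1.7, 0.968 and 1.01 CPM in EI, 0.578, 1.18 and 0.899 CPM in PG, 1.07, 1.2 and 1.27 CPM in G1, and 0.715, 0.9 and 1.2 CPM in G2. In the dark hormone-free stages it was 1.19, 1.27 and 1.55 CPM in H, 0.911, 1.38 and 1.21 CPM in T1, 1.59, 0.863 and 0.785 CPM in T2, and 0.887, 1.7 and 1.49 CPM in C1. The 24 dark libraries thus stayed between 0.578 and 1.7 CPM, and the ranges of successive dark stages overlapped at every step. In C2 the level of UFGT was 0.91, 1.08, 1.76, 0.408 and 0.4 CPM, in S 0.508, 1.86 and 3.38 CPM, in EP 6.68, 3.27, 5.85, 8.13 and 6.69 CPM, and in JP 5.11, 3.39 and 4.77 CPM. With TMM factors all 8 EP and JP libraries were above every dark library, but on total counts alone only 5 of the 8 were above the highest dark value of 2.49 CPM, and the EP and JP libraries reached down to 1.29 CPM. With TMM factors the lowest values of the series were those of C2 replicates 4 and 5. By their label these were lit, but they had the least LHCA2 of the lit libraries, 1.95 and 1.29 CPM.

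GST4, the transport gene, was near the limit of detection in the dark and rose to far higher levels in the lit stages. The 12 dark hormone-free libraries together held 37 GST4 counts and the 12 auxin libraries 23, with no library above 8 counts and 5 of these 24 libraries at 0. Among the dark stages the GST4 level was highest in T2, with 0.15, 0.23 and 0.262 CPM, and lowest in H, where 1 count was found in 3 libraries. In C2 it was 0.303, 0.27, 0.934, 0.545 and 0.178 CPM, and in S 1.61, 3.08 and 21.9 CPM. EP replicates 1 to 5 had 89.9, 87.5, 45.9, 22.6 and 13.4 CPM of GST4. JP had 12.1, 11.1 and 12 CPM. All 11 libraries of S, EP and JP were above all dark libraries, and C2 replicate 5 was within the range of T2.

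**Figure D1:**
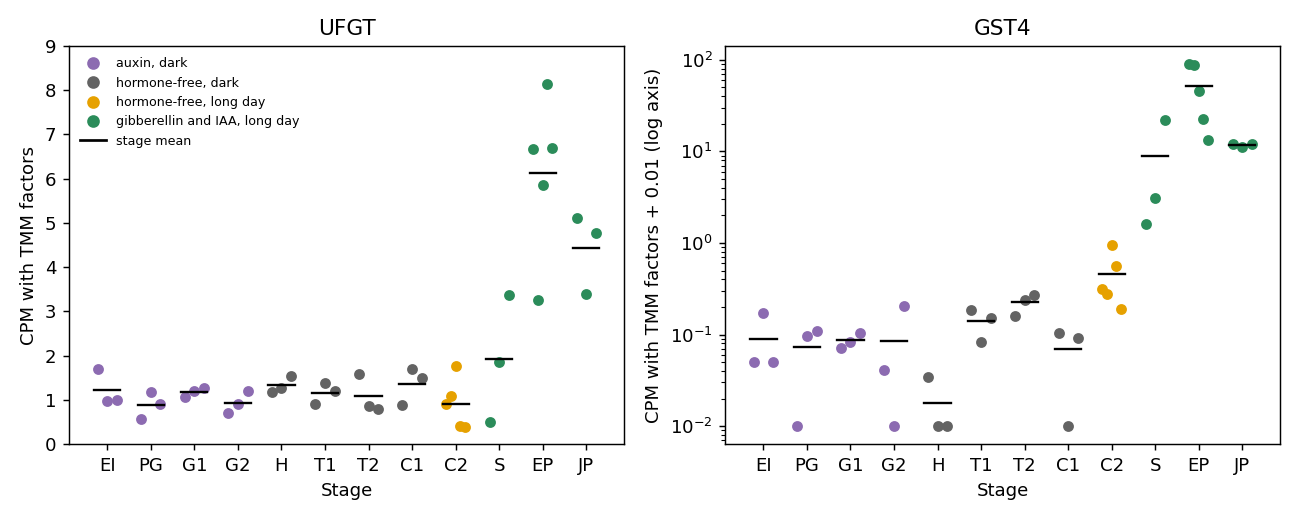
Levels of UFGT (left, linear axis) and GST4 (right, log axis after adding 0.01 CPM) in each of the 40 libraries, in CPM with TMM factors, by stage. Points are libraries, horizontal lines are stage means, and colours give hormone and light. On this scale UFGT was between 3.27 and 8.13 CPM in EP and JP and at or below 1.7 CPM up to C1, a separation that is lost for 3 of 8 libraries on total counts, while GST4 was between 11.1 and 89.9 CPM in EP and JP and at or below 0.262 CPM in the dark.

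Ordered by stage mean from high to low, UFGT ran from EP (6.13 ± 1.8 CPM, SD, n = 5) over JP (4.43 ± 0.914, n = 3) and S (1.92 ± 1.43, n = 3) to C1 (1.36 ± 0.424, n = 3), with PG lowest at 0.887 ± 0.303 CPM (SD, n = 3). Only JP and S, as neighbours in this order, did not overlap in their libraries, and only just, with 3.39 CPM in JP replicate 2 and 3.38 CPM in S replicate 3. On total counts alone they overlapped, with 2.42 CPM in JP replicate 2 and 2.6 CPM in S replicate 3. From S downwards each stage overlapped with the next, so that the order of these 10 stages is not resolved by the replicates. For GST4 the order ran from EP (51.9 ± 35.6 CPM, SD, n = 5) over JP (11.7 ± 0.573, n = 3) and S (8.86 ± 11.3, n = 3) to C2 (0.446 ± 0.305, n = 5) and T2 (0.214 ± 0.0577, n = 3). Neighbouring ranges did not overlap between EP and JP and between S and C2, and they overlapped at every other step. The SD of GST4 in S exceeded its mean, since replicate 3 had 21.9 CPM and the other 2 replicates 1.61 and 3.08 CPM.

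Levels were next compared between each stage and the one before it by edgeR's quasi-likelihood test, fitted to the libraries of both stages, with Benjamini-Hochberg adjustment over all genes tested and a threshold of 0.05 for the adjusted p. Over the 11 transitions this called 2 changes among the 7 genes, GST4 from C2 to S and UFGT from S to EP. The 5 MYBA genes passed the filter on low counts in none of the 11 transitions, and GST4 passed it in 3.

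In the auxin and dark hormone-free stages no change of UFGT was called. Its 7 tests had log2 fold changes between -0.49 and 0.49 and adjusted p values of 0.144 or more. Over all genes, the share called was 6.78% in PG over EI, 25.2% in G1 over PG, 0.676% in G2 over G1, 56.5% in H over G2, 31.7% in T1 over H, 2.06% in T2 over T1 and 0% in C1 over T2, where 1810 genes had an unadjusted p below 0.05. For H over G2, the transition with the most changed genes, UFGT had 1.34 ± 0.192 CPM in H and 0.937 ± 0.243 CPM in G2 (SD, n = 3 each), and its log2 fold change was 0.49 with a standard error of 0.258 (adjusted p = 0.144 in edgeR's test). Without G2 replicate 3 the same comparison reached a log2 fold change of 0.75 and an adjusted p of 0.0395, with 56.9% of all genes called.

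At the move into light, 22.3% of the genes tested changed in C2 over C1. That share was 0.0303% without C1 replicate 3, 0.0633% without C2 replicate 1 and 0.063% without C2 replicate 2. It lay between 4.72% and 37.2% when any other single library was left out, so that the number of calls at this step depends on single libraries. UFGT did not pass the threshold, with 0.911 ± 0.561 CPM in C2 (SD, n = 5) and 1.36 ± 0.424 CPM in C1 (SD, n = 3). The log2 fold change of UFGT was -0.56 with a standard error of 0.586, and edgeR's test gave an adjusted p of 0.49. Its estimate was negative in every alternative fit, between -1.09 and -0.09. GST4 had 0.178 to 0.934 CPM in the 5 C2 libraries, all above the 3 C1 libraries with 0 to 0.095 CPM, from sums of 43 counts in C2 and 6 counts in C1. It was too low for the filter in this pair. Without the filter its log2 fold change was 2.80 with an adjusted p of 0.0902 (2.31 and 0.118 without C2 replicate 3 as well), against 0.0201 from one edgeR model of all stages and 0.0186 from DESeq2 on the same pair. The last 2 fits called 38.6% and 30.8% of all genes. The highest GST4 value of C2 was that of replicate 3, the library with counts for the most genes. LHCA2, in comparison, was called higher in C2 (log2 fold change 4.37, standard error 0.981, adjusted p = 0.0225 in edgeR's test).

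Between C2 and S, with the change to germination medium with gibberellin and IAA, 27.6% of the genes changed and GST4 rose, with 8.86 ± 11.3 CPM in S (SD, n = 3) and 0.446 ± 0.305 CPM in C2 (SD, n = 5). Its log2 fold change was 4.22 (standard error 0.841, adjusted p = 0.00753 in edgeR's test), and the groups did not overlap. GST4, too low for the filter in C2 over C1, passed it in this pair through the S libraries, where it is high. Without S replicate 3 the log2 fold change was 2.34 and the adjusted p 0.05004, just past the threshold. It was below the threshold in the other 13 alternative fits, with log2 fold changes between 3.60 and 4.74. UFGT had 1.92 ± 1.43 CPM in S and 0.911 ± 0.561 CPM in C2, and its groups overlapped. The log2 fold change of UFGT was 1.00 with a standard error of 0.67 (adjusted p = 0.279), and it was 0.35 without S replicate 3 (adjusted p = 0.775), 1.44 without S replicate 1 (0.161) and 1.49 without C2 replicate 3 (0.0999).

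Between S and EP, with 30% of the genes changed, UFGT rose with TMM factors to 6.13 ± 1.8 CPM in EP (SD, n = 5), against 1.92 ± 1.43 CPM in S (SD, n = 3). On total counts alone UFGT was at 0.348, 1.56 and 2.6 CPM in S replicates 1 to 3. In EP replicates 1 to 5 it was at 2.84, 1.29, 2.47, 7.72 and 8.18 CPM on that scale. EP replicates 2 and 3 thus fell within the range of S. The log2 fold change of UFGT with TMM factors was 1.77 (standard error 0.516, adjusted p = 0.029 in edgeR's test). The call rested on several single libraries, with an adjusted p of 0.0721 without S replicate 1, 0.102 without S replicate 2, 0.0531 without EP replicate 1, 0.0529 without EP replicate 4, and 0.0526 without EP replicates 4 and 5 together, while the log2 fold change stayed between 1.28 and 2.39 in all fits. GST4 had 51.9 ± 35.6 CPM in EP and 8.86 ± 11.3 CPM in S, and S replicate 3 was inside the range of EP. Its log2 fold change of 2.71 (standard error 0.974) did not pass the threshold (adjusted p = 0.0627). It did without S replicate 3 (4.54, adjusted p = 0.0169, with 19.1% of all genes called) and without EP replicate 5 (2.96, adjusted p = 0.0396, with 29.5% called). It also did without EP replicates 4 and 5 (3.26, adjusted p = 0.0192, with 42.6% called). These 2 libraries had the lowest GST4 of EP with TMM factors, and leaving both out was chosen after seeing the data. With all libraries GST4 also passed in one edgeR model of all stages (2.54, adjusted p = 0.00378) and with DESeq2 on this pair (2.68, adjusted p = 0.00648). These 2 fits called 36.7% and 33.1% of all genes.

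Between EP and JP, with 5.54% of the genes changed, no member was called by the test on this pair. UFGT had 4.43 ± 0.914 CPM in JP (SD, n = 3) and 6.13 ± 1.8 CPM in EP (SD, n = 5), with overlapping ranges. Its log2 fold change was -0.50 with a standard error of 0.297, and edgeR's test gave an adjusted p of 0.347. GST4 had 11.7 ± 0.573 CPM in JP and 51.9 ± 35.6 CPM in EP, and all 3 JP libraries were below all 5 EP libraries. Its log2 fold change of -2.23 (standard error 0.664) missed the threshold with an adjusted p of 0.0829. Without EP replicate 5 it was -2.51 (adjusted p = 0.0195, with 11.7% of all genes called). Without EP replicates 4 and 5 it was -2.81 (adjusted p = 0.000346, with 46.6% called). These 2 libraries had the lowest GST4 of EP with TMM factors, and leaving both out was chosen after seeing the data. With all libraries GST4 was called lower in JP by one edgeR model of all stages (-2.14, adjusted p = 0.0336) and by DESeq2 on this pair (-2.26, adjusted p = 0.00424). These 2 fits called 9.59% and 12.8% of all genes.

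**Figure D2:**
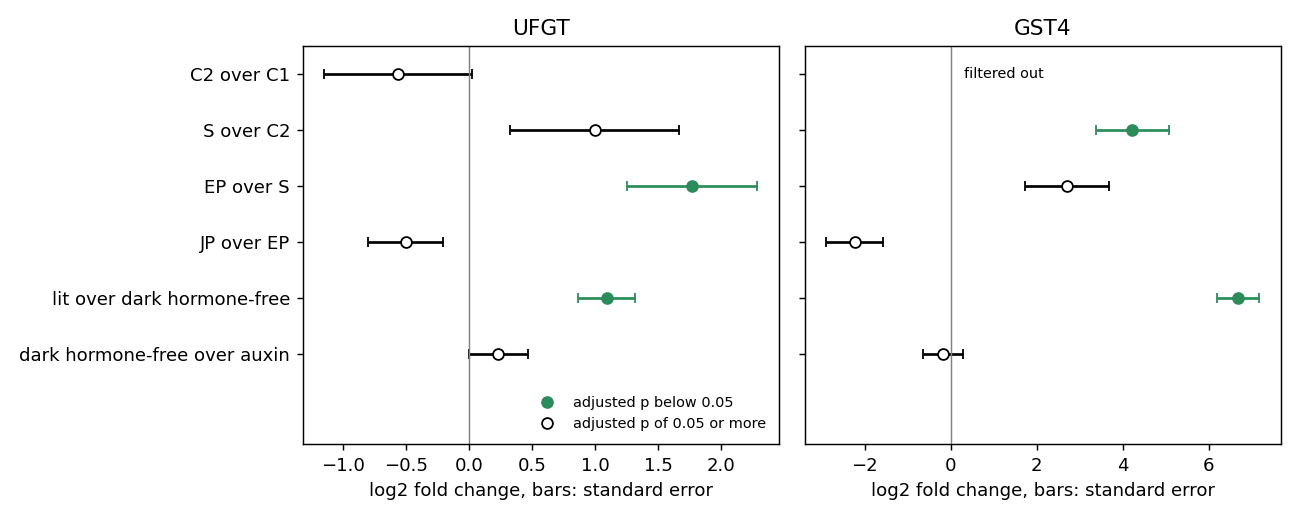
Log2 fold changes of UFGT (left) and GST4 (right), later over earlier stage, and for the groups of stages named on the axis, from edgeR's quasi-likelihood test. Bars are standard errors computed from the log2 fold change and the F statistic, filled points have an adjusted p below 0.05, and GST4 was filtered out for C2 over C1. The filled points are UFGT in EP over S (1.77), GST4 in S over C2 (4.22) and both genes in lit over dark hormone-free stages (1.09 and 6.67).

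The EP libraries differed among themselves in the balance between the enzyme and the transport gene. EP replicates 1, 2 and 3 had 49, 20 and 34 UFGT counts, and replicates 4 and 5 had 371 and 557. For GST4 the counts were 659, 535 and 267 in replicates 1, 2 and 3, and 1032 and 1113 in replicates 4 and 5. Within a library, which needs no scaling, the number of GST4 counts per UFGT count was 13.4, 26.8 and 7.85 in EP replicates 1 to 3, and 2.78 and 2 in EP replicates 4 and 5. In JP it was 2.36, 3.27 and 2.52, so that EP replicates 4 and 5 were close to JP while EP replicates 1 to 3 were above all JP libraries. It was 3.17, 1.66 and 6.48 in S and between 0.25 and 1.33 in C2. Since EP replicates were set apart here by their TMM factors, seen in the data, the differences between them were not tested.

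The scaling decides how these libraries compare for each gene alone. With TMM factors UFGT was at 3.27 to 6.68 CPM in EP replicates 1 to 3 and at 6.69 and 8.13 CPM in replicates 5 and 4, whereas on total counts alone it was at 1.29 to 2.84 CPM and at 8.18 and 7.72 CPM. GST4 was at 45.9 to 89.9 CPM against 22.6 and 13.4 CPM with TMM factors, and at 19.4 to 38.1 CPM against 21.5 and 16.4 CPM on total counts alone. On total counts the JP mean was 3.08 ± 0.642 CPM for UFGT and 8.2 ± 1.03 CPM for GST4 (SD, n = 3 each), and the EP mean 4.5 ± 3.21 CPM for UFGT and 26 ± 9.7 CPM for GST4 (SD, n = 5 each). EP had the highest stage mean of both genes under both scalings with all libraries. Without EP replicates 4 and 5 the EP mean on total counts was 2.2 CPM for UFGT, below the JP mean, and 30.7 CPM for GST4, above it, while with TMM factors it was 5.27 CPM for UFGT and 74.4 CPM for GST4, both above JP.

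**Figure D3:**
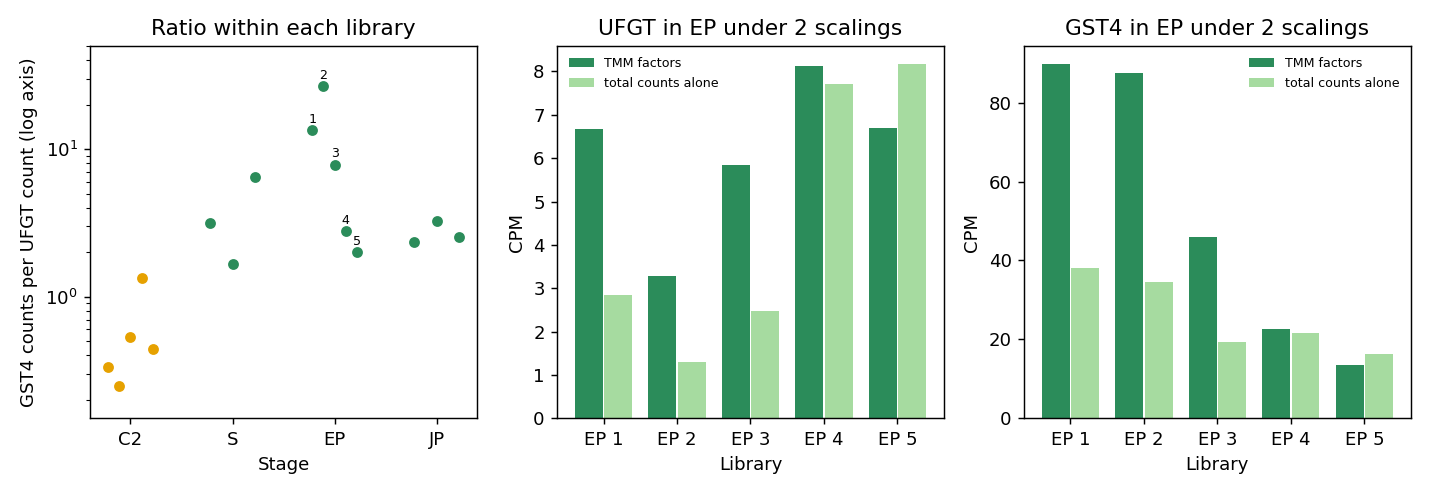
Left, GST4 counts per UFGT count in each lit library on a log axis, with EP replicate numbers beside their points. Middle and right, UFGT and GST4 in the 5 EP libraries in CPM, with TMM factors (dark bars) and on total counts alone (light bars). The ratio was 7.85 to 26.8 in EP replicates 1 to 3, 2 and 2.78 in EP replicates 5 and 4, and 2.36 to 3.27 in JP.

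Over the 12 stages together, the quasi-likelihood F test of one edgeR model called 94.7% of the 24862 genes tested, and UFGT (adjusted p = 5.09e-08) and GST4 (adjusted p = 8.58e-16) were among them. A share this large leaves the call of 2 of 7 genes uninformative about the anthocyanin branch. In the same model, the mean of the lit stages C2, S, EP and JP was compared with the mean of the dark hormone-free stages H, T1, T2 and C1, where 70.9% of the genes changed. UFGT was higher in the lit stages by 1.09 on the log2 scale (standard error 0.226, adjusted p = 7.71e-05), with a median of 3.32 CPM and a range of 0.4 to 8.13 CPM in 16 lit libraries, and of 1.24 CPM and 0.785 to 1.7 CPM in 12 dark hormone-free libraries. GST4 was higher by 6.67 (standard error 0.491, adjusted p = 3.13e-13), with a median of 11.5 CPM and a range of 0.178 to 89.9 CPM in lit libraries, and of 0.0889 CPM and 0 to 0.262 CPM in dark hormone-free libraries. No dark library held more than 8 GST4 counts, so that the gene passed the filter on low counts only through lit libraries. Its p-values in this model are thus those of a gene admitted by the stages where it is high. The ranges of both C2 and S overlapped the range of the dark hormone-free libraries for UFGT, and only that of C2 did so for GST4. The gap in UFGT was smaller on total counts alone. Its lit stage means were then 4.5 CPM (EP), 3.08 CPM (JP), 1.5 CPM (S) and 0.739 CPM (C2). The dark hormone-free stage means of UFGT lay between 1.3 CPM (T2) and 1.94 CPM (H) on that scale. S thus fell among the dark hormone-free means, C2 fell below them, and EP and JP stayed above. The contrast was not tested on total counts alone. The log2 fold change of LHCA2 in this contrast, with TMM factors, was 9.20.

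The dark hormone-free stages were compared with the auxin stages in the same way, and 43.7% of all genes changed. UFGT differed by 0.23 on the log2 scale, with a standard error of 0.237, an adjusted p of 0.45 and medians of 1.24 CPM in 12 dark hormone-free libraries and 1.04 CPM in 12 auxin libraries. GST4 differed by -0.18 on the log2 scale, with a standard error of 0.469, an adjusted p of 0.798 and medians of 0.0889 CPM in dark hormone-free libraries and 0.0669 CPM in auxin libraries, and its sign changed when single replicate numbers were left out. This GST4 test rests on only 37 counts in dark hormone-free and 23 counts in auxin libraries, and the gene passed the filter through lit libraries alone. These misses do not show equal levels.

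Counts of the 5 MYBA genes were few. Together they had 132 counts out of 990331511 counts in the series, 20 of them in C2 replicate 3 and 34 from MYBA6 in EP replicates 4 and 5. No MYBA gene passed the filter on low counts, so that no test is given for them from the filtered fits, and the counting intervals of such sums are wide.

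The colour locus genes MYBA1, MYBA2 and MYBA3, the regulators of berry skin colour and their neighbour, had 25, 17 and 26 counts over all 40 libraries. They were at 0 in 79 of the 120 combinations of gene and library, and outside C2 replicate 3 no value exceeded 3 counts. MYBA1 had a count in 16 libraries spread over 10 stages, with its highest value of 5 counts (0.275 CPM) in C2 replicate 3. In EP, where UFGT was highest, MYBA1 had 1 count in replicate 5 and none in the other 4 replicates, and in JP it had 2, 0 and 1 counts. MYBA2 had counts in 9 libraries, with 3 counts each in EI replicate 1 and C2 replicate 3 and none in any EP library. MYBA3 had counts in 16 libraries, with 5 counts in C2 replicate 3 and 1 count in the 5 EP libraries. The 8 EP and JP libraries held 11 counts of these 3 genes in all. The deepest EP libraries thus gave at most 1 count of each colour locus gene beside 371 and 557 UFGT counts. Pooled over the 16 lit libraries, the level was 0.0348 CPM for MYBA1, 0.0232 CPM for MYBA2 and 0.0435 CPM for MYBA3, against 0.0171, 0.00245 and 0.00978 CPM in the 12 dark hormone-free libraries. C2 replicate 3 gave 13 of the 35 lit counts of the 3 genes.

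The vegetative genes MYBA6 and MYBA7 were also low. MYBA6 had 52 counts in all, of which 27 came from EP replicate 5 (0.324 CPM) and 7 from EP replicate 4 (0.153 CPM), while EP replicates 1 to 3 had none. JP had 0, 1 and 1 counts of MYBA6, S had 1, 0 and 0, and no dark library had more than 2. MYBA6 counts were thus highest in the libraries with the most UFGT counts, which were also the deepest of the series. The absence of counts in EP replicates 1 to 3 allows up to 0.156 CPM over these 3 libraries together, against 0.264 CPM pooled over EP replicates 4 and 5. MYBA7 had 12 counts in 7 libraries, 5 of them in C2 replicate 3, and none in the 12 dark hormone-free libraries, which allows up to 0.00734 CPM there. It had 1, 0, 0, 1 and 0 counts in EP replicates 1 to 5.

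**Figure D4:**
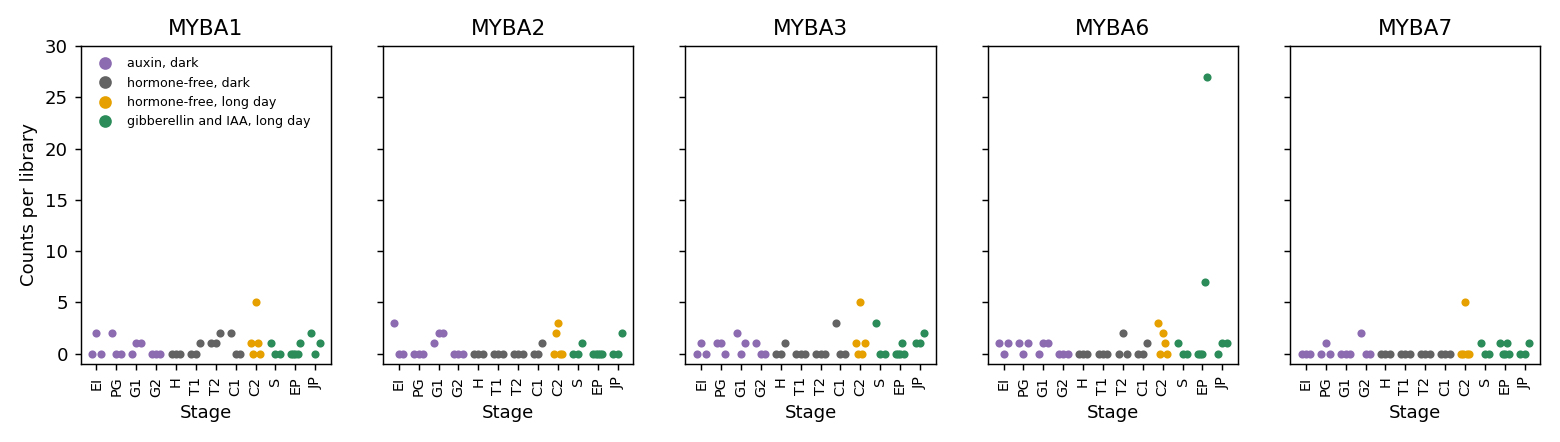
Counts per library of the 5 MYBA genes by stage, on a linear axis. Points are libraries and colours give hormone and light. Values were between 0 and 5 counts except for MYBA6 in EP replicates 4 and 5, with 7 and 27 counts.

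Without the filter on low counts, where 61.3% of all genes passed the threshold in lit over dark hormone-free stages, edgeR's test called MYBA6 (log2 fold change 2.63, adjusted p = 0.00772), MYBA3 (2.27, adjusted p = 0.0239) and MYBA7 (adjusted p = 0.0231) higher. DESeq2, with 64.3% of all genes called, placed only MYBA6 below the threshold (2.66, adjusted p = 0.036), with 0.517 for MYBA7 and 0.0581 for MYBA3. These calls rest on 43, 15 and 9 lit counts of MYBA6, MYBA3 and MYBA7, and on 3, 4 and 0 counts in the dark hormone-free libraries. EP replicates 4 and 5 gave 34 of the 43 lit MYBA6 counts, and C2 replicate 3 gave 5 each of the MYBA3 and MYBA7 counts. Without EP replicates 4 and 5 the unfiltered fit gave no usable estimate for MYBA6 or MYBA3. Their standard errors, computed from the log2 fold change and the F statistic, came out at 2036 and 5610, which only shows that F was very small. Without C2 replicate 3 the same held for MYBA7 (4614), while MYBA6 (2.59, adjusted p = 0.0111) and MYBA3 (1.93, adjusted p = 0.0393) were still called. No direction is therefore read for these genes. MYBA genes are close copies, and the sources at hand do not say how reads matching several of them were counted, so that a split of reads among them is possible.

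The table also lists genes with identifiers close to those of the MYBA members, for which the sources at hand give no names. Of 7 such genes near the colour locus, 6 never exceeded 10 counts in a library, while VIT_02s0033g00420 was abundant in every library, between 15.1 and 225 CPM. Near MYBA6, VIT_14s0006g01280 had 178 and 441 counts in EP replicates 4 and 5 (3.9 and 5.3 CPM) and 8, 3 and 11 counts in EP replicates 1 to 3 (1.09, 0.491 and 1.89 CPM). It was higher in lit than in dark hormone-free stages by 4.15 on the log2 scale (standard error 0.525, adjusted p = 2.74e-08 in edgeR's test), with 747 counts in 16 lit libraries and 18 in 12 dark hormone-free libraries. VIT_14s0006g01310, VIT_14s0006g01320 and VIT_14s0006g01330 had their highest counts in C2 replicate 3, with 83, 352 and 118, against at most 18, 106 and 17 in any other library. Counts were raised in C2 replicate 3 for 8 of the 12 listed neighbours, where they reached their maximum, and for 3 of the 5 MYBA genes. MYBA2 also reached its maximum of 3 counts there, tied with EI replicate 1. What set this library apart was not tested.

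Similarity of pattern was described by Pearson's r of log2 CPM (prior count 2) over the 40 libraries, which share stages and are not independent, so that no p is given. Between UFGT and GST4 r was 0.786. It was 0.861 within the 16 lit libraries and -0.143 within the 24 dark libraries, so that the pooled value rests on the lit stages. Of 24861 other genes, 498 had a higher r with UFGT than GST4 had, and 2020 had a higher r with GST4 than UFGT had. The genes most like UFGT were VIT_04s0023g01550 (r = 0.913), VIT_08s0007g07720 (0.902) and VIT_03s0038g03460 (0.899), and those most like GST4 were VIT_18s0076g00320 (0.976), VIT_09s0002g08510 (0.97) and VIT_08s0040g02200 (0.968). All 6 had their highest stage mean in EP. LHCA2 had an r of 0.942 with GST4 and of 0.753 with UFGT, ranks 87 and 854 among all genes.

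The other genes of the pathway were described as lists. The first holds 16 genes of the general flavonoid and anthocyanin enzymes and of transport, and the next holds 10 genes of their regulators, which act on several flavonoid branches. Both were assembled from general knowledge of this annotation, and the sources at hand do not pair their identifiers with names, so that they are given by counts and medians only. In C2 over C1, 10 of 15 enzyme genes tested were higher and none lower, with a median log2 fold change of 1.98 against 0.01 over all genes, of which 9.22% were called higher and 13.1% lower. UFGT, with -0.56, was not among these early changes. In S over C2 again 10 of 15 enzyme genes were higher and none lower (median 1.13, against -0.04 over all genes, with 16.1% called higher and 11.5% lower). In EP over S, the step at which UFGT was called higher with TMM factors, 3 of 16 enzyme genes were higher and 1 lower. The median was 0.42 against 0.08 over all genes, of which 16.1% were called higher and 13.9% lower, so that the share of the list was near that of all genes. In JP over EP 1 was higher and 1 lower, with a median of -0.06 against -0.00154 and with 2.46% of all genes called higher and 3.08% lower.

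Regulators were higher for 2 and lower for 1 of 9 genes tested in C2 over C1, and higher for 5 of 9 with none lower in S over C2. In EP over S 3 of 10 were higher and none lower, and in JP over EP 2 were higher and 1 lower. The shares of all genes called higher at these 4 steps were 9.22%, 16.1%, 16.1% and 2.46%, and those called lower 13.1%, 11.5%, 13.9% and 3.08%. The median log2 fold changes of the regulators were 0.40, 1.19, 0.85 and 0.34, against 0.01, -0.04, 0.08 and -0.00154 over all genes. In lit over dark hormone-free stages, 15 of 16 enzyme genes and 8 of 10 regulators were higher and 0 and 1 lower, with medians of 2.42 and 2.56, against -0.06 over all genes and 33.6% called higher and 37.3% called lower. In dark hormone-free over auxin stages, 2 enzyme genes were higher and 3 lower (median -0.34), and 3 regulators were higher and 5 lower (median -0.46), against 0.02 over all genes, of which 22.8% were called higher and 20.8% lower. A further 4 genes carry the flavonoid synthesis term in the part of the study's annotation at hand, 1 of them also on the enzyme list. Of the 3 that could be tested, 1 was higher and 1 lower in lit over dark hormone-free stages.

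**Figure D5:**
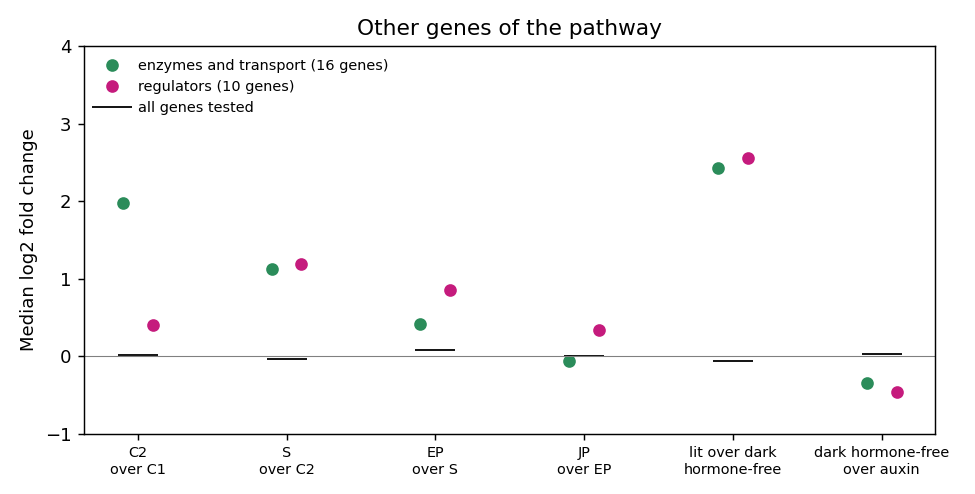
Median log2 fold change of 16 genes of flavonoid enzymes and transport and of 10 regulators, for 4 successive steps and the contrasts between groups of stages, with the median of all genes tested as a black dash. Among the 4 successive steps shown, the enzyme list had its largest median in C2 over C1 (1.98), where UFGT had a log2 fold change of -0.56.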

How the data were processed

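The deposited file holds counts of reads per gene for 40 libraries, which the authors made from rRNA-depleted RNA by paired-end sequencing, alignment to the 12X grapevine genome in BBMap and counting in R, and did not normalize. Multi-mapping and strand rules of this counting are not given in the sources used here. All 40 columns were matched to samples by name, with 0 columns unused. The members and lists were chosen with earlier results of these data known.

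Counts were tested with edgeR 4.0.16 in R 4.3.3 (TMM factors, filterByExpr, quasi-likelihood test, Benjamini-Hochberg adjustment over all genes tested, threshold 0.05), each pair of successive stages on its own libraries and the other comparisons in one model of all 40. Standard errors given for edgeR's tests are the absolute log2 fold change divided by the square root of the F statistic. Log2 CPM used a prior count of 2. DESeq2 1.42.0 served as an alternative, an adjusted p that it left undefined stayed so, and the other alternatives are named below. Figures and tables used pandas 2.3.3, scipy 1.17.1 and matplotlib 3.10.9. The tests were tried on simulated counts with 4-fold changes set in 200 genes of ample counts and with the same spread for every gene. Between 93.5% and 99% of these changes were recovered in the steps from C1 to JP. Genes with as few counts as GST4 in the dark or the MYBA genes were not covered by this trial. Named genes are the 7 members, the 3 genes most like each member that passed the filter, LHCA2, and the genes with identifiers next to the MYBA members. A count of 0 was read as allowing up to 3 counts, which covers counting error only. Of the table's identifiers, 0 were found in the RefSeq list of the assembly ASM3070453v1, so that neither coordinates nor sequences are given.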

Additional observations from a re-analysis of the deposited data

Results flagged for a closer look

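Gaps within stages of 5 replicates were examined for every member with a count in C2 or EP, 13 groups in all, and a library was noted where its gap to the next exceeded 0.71 of the range. This was met in 6 groups, all of MYBA genes with few counts. The rate of about 1 group in 20 given by chance holds for continuous values and not for these, where 1 count beside zeros sets the gap, so that the number of groups carries no evidence. In C2, replicate 3 was far above the other 4 for MYBA1 (0.275 CPM), MYBA3 (0.275 CPM) and MYBA7 (0.275 CPM), each from 5 counts. In EP, a single count put replicate 5 highest for MYBA1 (0.012 CPM), replicate 4 for MYBA3 (0.0219 CPM) and replicate 1 for MYBA7 (0.136 CPM), where replicate 4 had 1 count too and a lower level for its greater depth. No such gap was found for UFGT or GST4.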

How the results depend on the processing

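The 2 changes called between successive stages became 4 with the replicate block (with GST4 in EP over S and in JP over EP added), 5 in one edgeR model of all stages, 5 with DESeq2 and 4 at an unadjusted p below 0.05. They became 3 without EP replicates 4 and 5 and 3 without the filter on low counts, where the third was not UFGT or GST4 from C2 over C1 onwards. Leaving out single libraries gave between 1 and 4 (1 without S replicate 1, S replicate 2, EP replicate 1 or EP replicate 4, and 4 without EP replicate 5). Replicates 4 and 5 exist only in C2 and EP. In pairs with these stages the block thus sets them aside, much as leaving them out does, and is no separate alternative. The share of all genes called moved as well. In C2 over C1, EP over S and JP over EP it was 22.3%, 30% and 5.54% in the main fit. The replicate block gave 0%, 40.9% and 40.4% for these steps. One edgeR model gave 38.6%, 36.7% and 9.59%, and DESeq2 gave 30.8%, 33.1% and 12.8%. Leaving out single libraries moved the share in C2 over C1 between 0.0303% and 37.2%. Of 7 genes, 2 were called over the 12 stages (3 without the filter on low counts), 2 in lit over dark hormone-free stages and 0 in dark hormone-free over auxin stages. The lit contrast gave 5 without the filter on low counts, where 61.3% of all genes were called, and 4, 3 and 2 when C2 replicate 3, EP replicates 4 and 5, or all 3 libraries were left out as well (with 61.3%, 62.4% and 62.6% of all genes called). The replicate block left the last 3 counts at 2, 2 and 0. Same-numbered replicates did not deviate together, with correlations of -0.471 to 0.249 (median 0.00687) over the 11 transitions, so that they share only a number. GST4 in dark hormone-free over auxin stages changed sign without replicate 2 (log2 fold change 0.291) and without replicate 3 (0.323), with a range of -0.988 to 0.323 when replicate numbers were left out, and the cause was not tested. The correlation of UFGT and GST4 was 0.438 by Spearman and 0.862 over stage means. Leaving out EP replicates 4 and 5 or C2 replicate 3, with or without the filter on low counts, or summing C2 or EP replicates 1 and 2, was chosen after seeing the data. Levels on total counts moved by more than the SD in 7 of 24 stage means. With at most 8 counts per library, GST4 in the dark was limited by depth, as were the MYBA genes, which had at most 5 counts outside MYBA6 in EP replicates 4 and 5.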
